A study of Mus musculus with 5 samples.

Results

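Endothelial cells, the cells that line blood and lymphatic vessels, were chosen by the RNA counts of marker genes in the scRNA-Seq data of MC38 tumors, and 183 of the 65356 barcodes of both tumor reactions were members, out of 191492 barcodes in the series. A barcode had to have at least 200 genes and under 10% mitochondrial UMIs (unique molecular identifiers, each standing for 1 captured RNA molecule). It had to show at least 3 of the 7 markers Pecam1, Cdh5, Kdr, Flt1, Egfl7, Eng, and Emcn, with at least 1 UMI of Cdh5 or Egfl7. It also had to have no UMI of Ptprc, the gene of the leukocyte antigen CD45, and fewer than 20 UMIs per 10000 of Col1a1, Col1a2, and Col3a1 together and of C1qa, C1qb, and C1qc together. The rule kept 89 barcodes in reaction 1 and 94 in reaction 2, or 0.371% and 0.582% of the 23985 and 16142 barcodes without Ptprc that passed the filters. Members held a median of 4954 and 8845 UMIs, from 664 to 50894 and from 687 to 91066.

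MC38 is a mouse colon carcinoma line. The tumors grew under the skin of male C57BL/6J mice, 8 to 10 weeks old, and were collected at day 15. Treatment had 2 steps. The checkpoint inhibitors anti-CTLA4 and anti-PD-1 (together CPI), or isotype antibodies in their place, were dosed at day 3, day 6, and day 9, and the JAK1 inhibitor ABT-317 (20 mg/kg), or DPBS as its vehicle, was given from day 12. The 4 treatments are called isotype, CPI, isotype + ABT-317, and CPI + ABT-317, and each had 1 hashtag in each of the 2 reactions. Live CD45+ and CD45- cells were sorted and mixed 1:1 before loading 60000 cells per reaction, so no share below is a share of the tumor. Tumors of several mice per group were taken for scRNA-Seq, but with 1 hashtag per treatment and reaction the mice behind a value cannot be told apart here, and the spread between reactions may be technical. Fibroblasts and the cancer cells were sorted with the endothelial cells as CD45- cells.

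Blood vessel endothelium holds its cells together with VE-cadherin (Cdh5), CD31 (Pecam1), and claudin 5, and grows under VEGF, which it senses through the receptors Kdr and Flt1. Sprouts are led by tip cells, while capillary, arterial, venous, and lymphatic endothelium each express their own genes. Endothelium of postcapillary venules carries the selectins and adhesion molecules through which leukocytes enter tissue, and IFN-γ, which signals through JAK1, raises antigen presentation and chemokine genes in many cell types including endothelium.

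The treatment of a barcode was read from hashtags, antibodies against surface proteins that carry a DNA tag of 15 bases. Their sequences, shown because every treatment comparison below rests on telling them apart, differ from each other at 7 to 14 of 15 positions over the 28 pairs. The tag of the CD31 antibody is shown with them because CD31 protein was the readout that checked the label of the cells.
isotype, reaction 1: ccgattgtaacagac
isotype, reaction 2: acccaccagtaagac
CPI, reaction 1: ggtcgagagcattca
CPI, reaction 2: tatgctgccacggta
CPI + ABT-317, reaction 1: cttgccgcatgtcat
CPI + ABT-317, reaction 2: gagtctgccagtatc
isotype + ABT-317, reaction 1: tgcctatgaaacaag
isotype + ABT-317, reaction 2: tatagaacgccaggc
CD31 antibody: gctgtagtatcatgt

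The members were of 2 kinds, and only one of them bore out the label throughout. In 104 members, 51 in reaction 1 and 53 in reaction 2, the 7 markers made up at least 20 of every 10000 UMIs. In these marker-dense cells the surface protein CD31, which the rule did not use, had a median of 274 and 305 antibody UMIs, against 14 and 16 in barcodes of the fibroblast gate (nonmembers without Ptprc and with at least 20 UMIs per 10000 of the 3 collagen genes) and 14 and 15 in the other barcodes without Ptprc. At least 3 of 20 endothelial genes outside the rule, such as the tight junction protein Cldn5 and the receptor Tie1, were detected in 96.1% and 96.2% of the dense cells. Of the dense cells, 16 and 5 carried several hashtags. The limit of 20 per 10000 was set after the values had been seen.

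The other 79 members, 38 and 41, carried the markers sparsely in large libraries, with a median of 26114 and 28892 UMIs per barcode against 2932 and 3421 in the dense cells. Of these, 16 and 19 had at least 3 of the 20 further endothelial genes, and their median CD31 antibody count was 293 and 328. In that group 14 of 16 and 17 of 19 barcodes carried several hashtags, against 35.7% and 22.6% of the other barcodes without Ptprc, and whether these held more than 1 cell was not tested. The remaining 22 and 22 had a median of 17.5 and 16.5 CD31 antibody UMIs, between the 25th and 75th percentiles of the fibroblast gate, and the data go against the endothelial label for them. Cell cycle genes, such as the proliferation antigen Mki67, were at 33.8 and 24.0 UMIs per 10000 in them, at 25.6 and 15.4 in the sparse members with at least 3 of the 20 genes, at 25.6 and 24.99 in the other barcodes without Ptprc, and at 8.37 and 9.75 in dense cells. No program that calls doublets was run. Levels are given for the dense cells, and treatment results for all members and for dense cells.

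**Figure D1:**
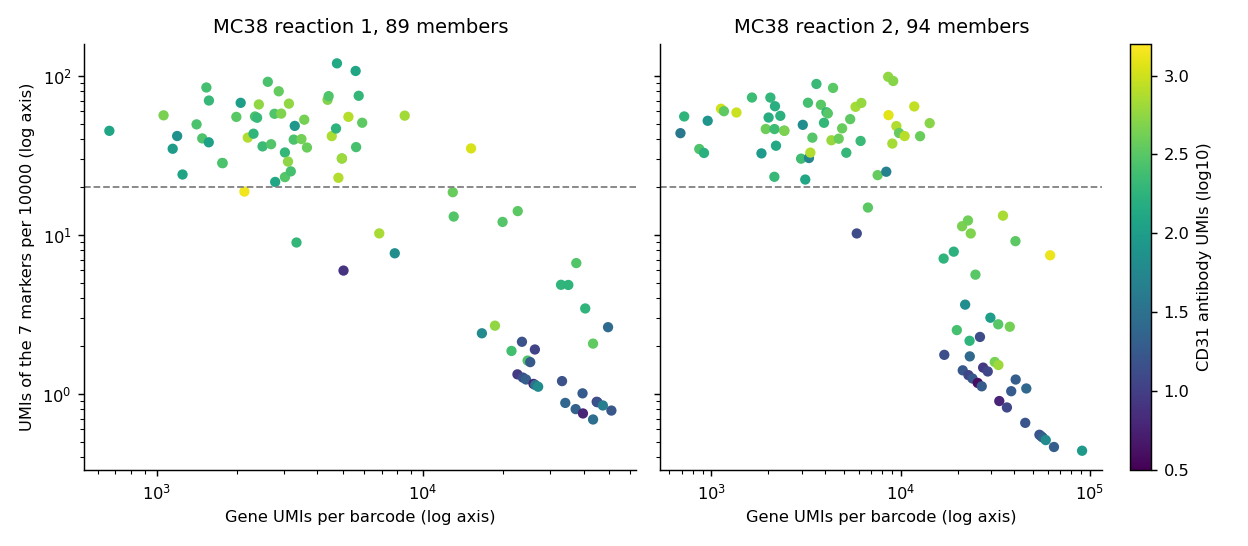
Each point is 1 member, with its gene UMIs on the x axis and the UMIs of the 7 markers per 10000 on the y axis (both log axes), colored by CD31 antibody UMIs, and the dashed line marks 20 per 10000. The 51 and 53 points above the line carried few UMIs and much CD31, and most points at the lower right carried CD31 at the level of other cells.

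**Figure D2:**
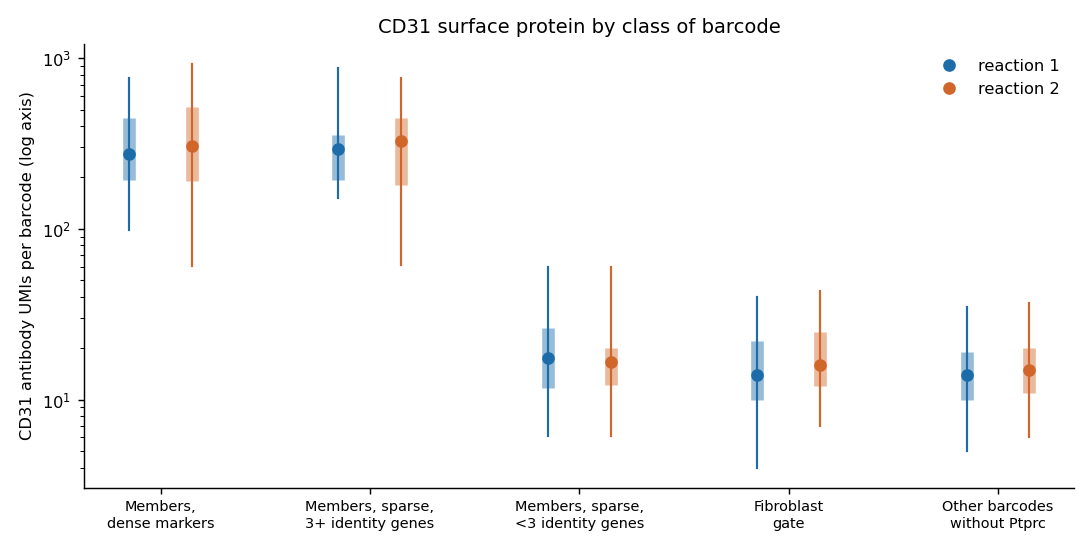
CD31 antibody UMIs per barcode (log axis) by class and reaction, with the median as a point, the 25th to 75th percentiles as a thick bar, and the 5th to 95th as a thin bar. Dense members and sparse members with at least 3 identity genes sat at medians of 274 to 328, and sparse members with fewer identity genes at 17.5 and 16.5, beside the fibroblast gate at 14 and 16.

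At the edge of the rule, the 34 and 31 members with exactly 3 markers had a median of 28 and 20 CD31 antibody UMIs, and the 309 and 403 barcodes left out with 2 markers had 15 and 16. At least 3 of the 20 further genes were found in 32.4% and 25.8% of the former and in 2.59% and 3.23% of the latter, while all 31 and 37 members with 6 or 7 markers had them. The highest collagen level kept was 18.2 and 19.5 UMIs per 10000 and the lowest left out by that limit alone was 21.7 and 20.5. No member had a UMI of the keratins Krt8 or Krt18. Of the barcode sequences, 1416 occurred in both reactions, among them 4 members of reaction 1 and 5 of reaction 2, and none was a member in both.

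Markers of other cells were few in the dense cells. Macrophage genes, such as Lyz2 and C1qb, summed to 600.2 and 252 CPM (the UMIs of a gene, summed over the cells of a class and scaled to the same total of UMIs in every class) against 13095 and 15431 CPM in the macrophage gate (nonmembers outside the fibroblast gate with at least 20 UMIs per 10000 of the C1q genes). Genes of fibroblasts summed to 265.5 and 116 CPM against 12033 and 12945 in the fibroblast gate. Of 6 T cell genes, Cd3d, Cd3e, Cd3g, Cd2, and Cd8a had no UMI in dense cells and Trbc2 had 2 and 1. Mural cell genes, those of the pericytes and muscle cells that wrap vessels, reached 40.4 and 268 CPM, where Rgs5 (13 UMIs) and Acta2 (21 UMIs) of reaction 2 were each found in 3.77% of its dense cells. Red cell genes summed to 28.9 and 206 CPM, above the 1.10 and 0.804 CPM of the other barcodes without Ptprc. Free RNA and droplets with more than 1 cell can both add such UMIs, and their part was not tested.

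The genes with the highest ratio of members over other barcodes without Ptprc were largely known vessel genes. All genes below describe the cells the rule chose and are given without a test. Treatments are pooled in these levels and in the antibody levels below, and were mixed unequally. The CPI hashtag alone was on 25 of 51 and 34 of 53 dense cells. Of all 23985 and 16142 barcodes without Ptprc, it was on 1565 and 1058. The part of treatment in the gaps between the classes was not tested. Of the 25 genes with the highest ratios, Emcn and Cdh5 were rule markers and 7 (Adgrl4, Tie1, Cldn5, Robo4, Sox17, Sox18, and Ptprb) were on the list of 20 further endothelial genes. The first was Gpihbp1, which carries lipoprotein lipase to the capillary surface, at 744 and 999 CPM in dense cells (129 and 242 UMIs) against 0.176 and 0.193 CPM in the other barcodes. The transcription factor Sox18 was at 306 and 520.3 CPM and its relative Sox17 at 127 and 231 CPM. The endothelial phosphatase Ptprb was at 456 and 557 CPM, and Aplnr, the receptor of apelin, at 277 and 194 CPM.

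Some genes of this rank were held by few cells. Chga, which encodes the secretory granule protein chromogranin A, was at 254 and 256 CPM in dense cells, yet only 8 of 51 and 9 of 53 dense cells had a UMI, against 0.0757% and 0.134% of barcodes in the fibroblast gate. Esm1, a gene of tip cells, was at 110 CPM in 17.6% of dense cells of reaction 1 and at 458 CPM in 28.3% of those of reaction 2. The remaining genes among the 25 were Fam110d, Myct1, Tmem252, Sncaip, Afap1l1, C130074G19Rik, Gm56622, She, Dll4, Prnd, Nxpe2, and C1qtnf9, which lay between 45.4 and 314 CPM in dense cells of either reaction.

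Of the 15 genes of VEGF and angiopoietin signaling, 13 were detected in at least 10% of dense cells in both reactions, and all 13 were at least 2-fold above the other barcodes in both, where 33.2% of the 4163 genes so detected were. Kdr, Flt1, and Eng among them are rule markers, and detection in the dense cells was required, which favors genes that are high in them, so the count describes the cells chosen and is no support. The VEGF receptors Kdr and Flt1, both rule markers, were at 277 and 380 CPM and at 658 and 942 CPM, and the coreceptors Nrp1 and Nrp2 at 277 and 223 CPM and at 352 and 256 CPM. Tek and Tie1, the receptors of the angiopoietin pathway, were at 98.1 and 116 CPM and at 329 and 351 CPM. The ligand Angpt2 was at 86.6 and 140.4 CPM, and Vegfa, the ligand that hypoxic tissue makes, was at 23.1 and 4.13 CPM against 74.9 and 64.9 CPM in the other barcodes.

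Genes of junctions and of the vessel wall followed. Cldn5, the gene of claudin 5, was at 369 and 541 CPM against 0.127 and 0.126 CPM in the other barcodes. All 7 genes of caveolae and permeability were at least 2-fold higher in both reactions, among them Cav1 at 1062 and 908 CPM and Plvap, which forms the diaphragms of fenestrae, at 739 and 863 CPM. All 12 basement membrane genes were also at least 2-fold higher, where 33.2% of all detected genes were, and for both lists detection in the dense cells favors genes that are high in them. The basement membrane sum was 15443 and 16592 CPM against 1401 and 1458 CPM. Col4a1, a chain of type IV collagen, was found in every dense cell, at 3878 and 3287 CPM, and Sparc was at 5113 and 7206 CPM. The fatty acid binding protein Fabp4 was at 5396 and 5608 CPM against 59.9 and 61.8 CPM. Among CPI barcodes alone, Sparc was higher in the fibroblast gate, at 17646 and 21782 CPM against 4810.5 and 5160 CPM in dense cells. Nid1 was also higher in that gate, at 593 and 611 CPM against 299 and 234.5 CPM. Col4a1 went the other way, at 300 and 305 CPM in the gate against 4236 and 2814.5 CPM.

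**Figure D3:**
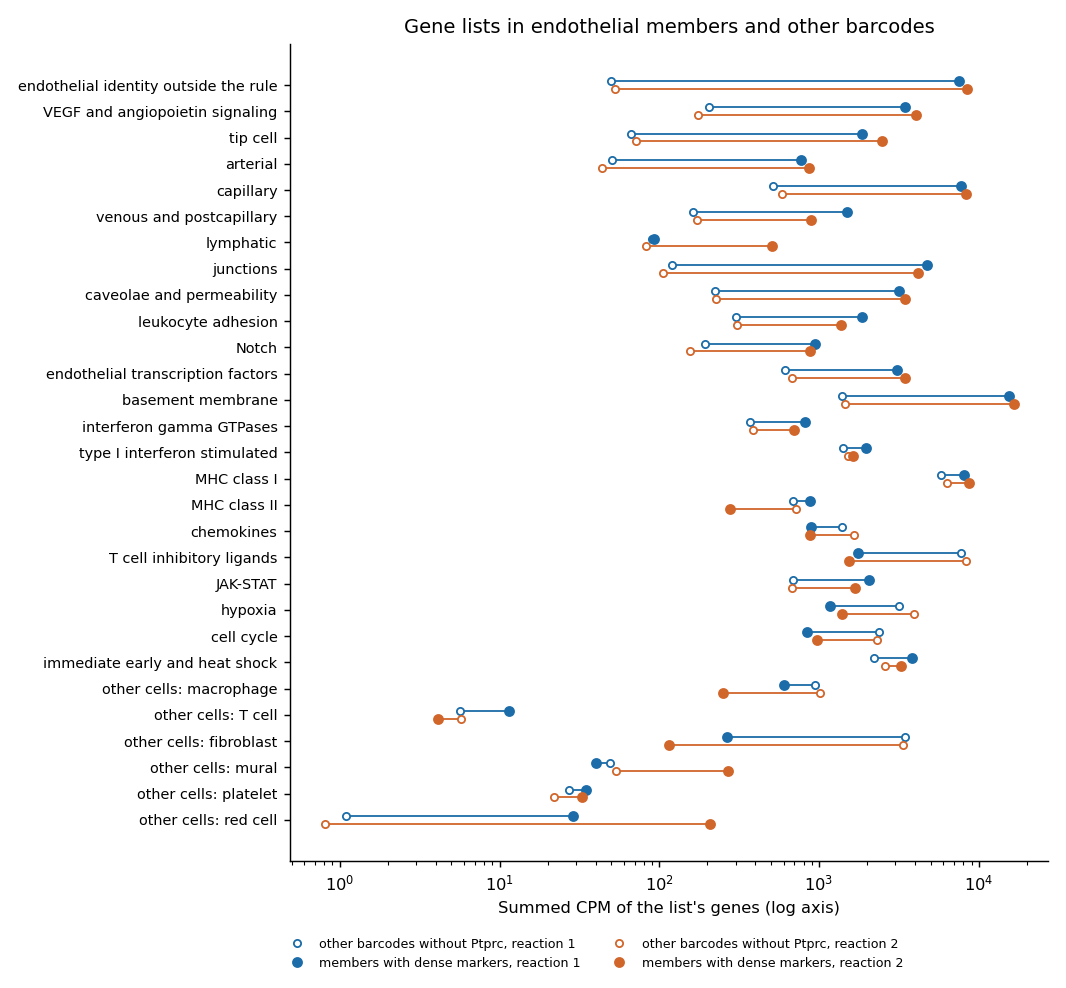
Summed CPM (log axis) of the genes of each list in dense members (filled circles) and other barcodes without Ptprc (open circles), with a line joining both for each reaction. Treatments are pooled, and CPI barcodes made up more of the dense members than of the others. Endothelial, VEGF, junction, and basement membrane lists lay to the right in dense members of both reactions, cell cycle, hypoxia, and fibroblast lists to the left, and lymphatic, mural, MHC class II, and T cell lists differed between reactions.

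Genes of vessel subtypes were found side by side. At least 2 of the 8 capillary genes, such as Gpihbp1, Cd36, and Aplnr, were detected in 94.1% and 86.8% of dense cells (95% exact binomial intervals, 83.8% to 98.8% and 74.7% to 94.5%). At least 2 of the 12 tip cell genes were found in 60.8% and 73.6%, at least 2 of the 9 venous genes in 58.8% and 58.5%, and at least 2 of the 10 arterial genes in 41.2% and 49.1%. These shares rose with depth. When each cell was thinned to 1000 UMIs, which left 50 and 48 dense cells, they were 62.0% and 72.9% for capillary, 30.0% and 39.6% for tip cell, 34.0% and 20.8% for venous, and 8.00% and 18.8% for arterial genes. The lists are not exclusive, since Dll4 is in both the tip cell and the arterial list, and no cell was assigned to a subtype. Intervals cover counting error only.

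Lymphatic endothelium was seen in reaction 2 alone. There, 3 dense cells, all with the CPI hashtag, carried 17, 43, and 48 UMIs of lymphatic genes, and 1 sparse member with several hashtags carried 99. Ccl21a, the chemokine with which lymphatic vessels draw in dendritic cells and T cells, had 80 UMIs in the 3 dense cells and none in the 51 dense cells of reaction 1. Prox1, the transcription factor that defines lymphatic endothelium, had 4 UMIs in 2 of the dense cells. The 3 dense cells had 153, 53, and 48 CD31 antibody UMIs, at the low end of the dense members.

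The 11 leukocyte adhesion genes summed to 1847 and 1371 CPM in dense cells, and some genes of leukocyte entry lay further apart between the reactions. Selp, encoding P-selectin, had 32 UMIs in 8 of 51 dense cells of reaction 1 and 3 UMIs in 2 of 53 of reaction 2. Ackr1, a chemokine receptor of venules, had 12 UMIs in 6 cells and 1 UMI in 1 cell, and Icam1 was found in 15 and 5 cells, while Sele, encoding E-selectin, had 7 and 8 UMIs in 4 and 2 cells. Of the 25 UMIs of Glycam1 in reaction 1, a gene of high endothelial venules, 18 were in 1 cell. Icam2, an adhesion molecule of resting endothelium, went the other way, with a UMI in 37.3% and 69.8% of dense cells. These are differences between single reactions and have no test.

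MHC class I and type I interferon genes were mostly within 2-fold of the other barcodes. The 12 genes of MHC class I presentation summed to 8022 and 8701 CPM in dense cells against 5811 and 6340 CPM, with 1 of 11 detected genes (H2-T23) at least 2-fold higher in both reactions and 2 at least 2-fold lower, as were 5.02% of the 4163 genes. H2-K1 was at 2118 and 2321 CPM against 1125 and 1237 CPM. Of the 15 type I interferon genes, the 7 detected had a median log2 ratio of 0.47, below the median of 0.63 over all 4163 genes. The 14 GTPases induced by IFN-γ, which act against pathogens inside cells, summed to 819 and 698 CPM against 367 and 386 CPM, with 4 of the 9 detected at least 2-fold higher in both reactions, where 33.2% of all detected genes were. MHC class II genes were at 871 and 277 CPM, and their values went with those of the macrophage genes, at 600.2 and 252 CPM, though the part of macrophage RNA was not tested. Cxcl9, a chemokine induced by IFN-γ, was at 110 and 239.5 CPM against 22.6 and 19.4 CPM, and was detected in 21.6% and 18.9% of dense cells and in 17.1% and 16.2% of barcodes of the fibroblast gate, which had median depths of 7521 and 8554 UMIs. Cxcl12, which binds Cxcr4 on leukocytes, was at 398 and 458 CPM against 7.70 and 7.55 CPM. Among CPI barcodes alone, Cxcl12 was at 574 and 595 CPM in dense cells and at 299 and 313 CPM in the fibroblast gate. With isotype it was at 0 and 252 CPM and at 4.31 and 2.88 CPM.

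Jak1, the gene of the kinase that ABT-317 inhibits, was at 410 and 248 CPM in dense cells against 80.0 and 76.7 CPM in the other barcodes. After CPI, Jak1 was at 431 and 243 CPM in dense cells and at 267 and 272 CPM in the fibroblast gate. With isotype it was at 631 and 353 CPM and at 114 and 111 CPM. Of the 13 JAK-STAT genes detected among 19, 10 were at least 2-fold higher in both reactions, where 33.2% of all detected genes were. Detection in the dense cells was required, which favors genes that are high in them, so the count describes the cells chosen and is no support. Jak2 was at 121 and 74.3 CPM against 16.8 and 12.7 CPM, and Jak3 at 51.9 and 61.9 CPM against 3.96 and 3.99 CPM. The receptor subunit Ifngr1, of the IFN-γ receptor, was at 127 and 161 CPM against 37.1 and 40.9 CPM. The feedback inhibitor Socs1 was at 28.9 and 16.5 CPM against 48.3 and 56.5 CPM.

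Some of the genes with at least 300 CPM in the other barcodes were lower in dense cells. The collagen genes Col1a1, Col1a2, and Col3a1, which the rule capped, are left aside. Phgdh, an enzyme of serine synthesis, was at 23.1 and 20.6 CPM against 378 and 476 CPM, and the metallothionein gene Mt2 was at 51.9 and 12.4 CPM against 512 and 437 CPM. Lgals1, encoding galectin 1, was at 1368 and 1078 CPM against 7631 and 8208 CPM. The glycolytic gene Pgk1 was at 231 and 223 CPM against 1026 and 1275 CPM, and Ccl2 at 185 and 41.3 CPM against 808 and 1018 CPM. Among CPI barcodes alone, Pgk1 was at 156 and 159 CPM in dense cells and at 205 and 265 CPM in the fibroblast gate. Ldha was at 383 and 394 CPM and at 338 and 415.5 CPM. Lgals1 stayed lower in dense cells, at 1244.5 and 1139 CPM against 3293 and 3470 CPM, as did Mt2 and Ccl2. Over all treatments, 4 of the 6 hypoxia genes detected were at least 2-fold lower in both reactions and 1 at least 2-fold higher, where 5.02% and 33.2% of all detected genes were. Cell cycle genes summed to 837 and 974.5 CPM against 2380 and 2293 CPM, with 1 of the 4 detected at least 2-fold lower, and after thinning 8.00% and 14.6% of dense cells had at least 2 of the 12.

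The promoters of 2 of the leading genes are shown because endothelial enhancers and promoters are known to be read by ETS factors such as Erg and Fli1, both among the 20 further genes. The windows run from 250 bases before to 50 after the start of the gene in RefSeq on GRCm38.p6, and capitals mark CAGGAA or, on the other strand, TTCCTG, letters that ETS factors bind. Tie1 lies at chr4:118489800-118490099 on the minus strand and Robo4 at chr9:37401722-37402021 on the plus strand.
Tie1: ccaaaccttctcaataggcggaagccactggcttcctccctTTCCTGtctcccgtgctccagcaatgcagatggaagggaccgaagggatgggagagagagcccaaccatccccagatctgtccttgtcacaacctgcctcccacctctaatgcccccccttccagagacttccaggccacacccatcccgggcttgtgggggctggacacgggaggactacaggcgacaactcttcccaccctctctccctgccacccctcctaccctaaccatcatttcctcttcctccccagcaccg
Robo4: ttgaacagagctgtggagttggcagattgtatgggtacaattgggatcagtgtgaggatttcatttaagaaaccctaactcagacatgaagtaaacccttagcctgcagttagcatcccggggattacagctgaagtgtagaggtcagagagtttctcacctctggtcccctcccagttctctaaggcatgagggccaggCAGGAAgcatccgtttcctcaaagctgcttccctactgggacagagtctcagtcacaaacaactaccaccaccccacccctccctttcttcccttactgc
The letters were found in 10 of 19 promoters (52.6%) of 14 of the 27 rule and further genes and in 30.6% of all 32851 promoters. Cd93, Cdh5, Ecscr, Esam, Fli1, Mmrn2, Pecam1, Plvap, Ptprb, Ramp2, Sox17, Sox18, and Sox7 had no entry in the set of promoter sequences used here, which does not mean that RefSeq lacks them. A match describes the letters of the window and is not a binding site.

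Surface antibodies, which the rule did not use, gave a second view of the cells. Of 113 antibodies without the 9 isotype controls, 6 had at least 2-fold more UMIs per dense cell than per other barcode without Ptprc in both reactions, and 2 had at least 2-fold fewer. CD31 was first, with a mean of 341 and 370.5 UMIs per dense cell against 17.1 and 19.1. CD38 followed at 4.51 and 4.34 times the other barcodes, CD49b (integrin α2) at 51.1 and 63.1 against 12.3 and 13.7, and CD73, the enzyme that makes adenosine, at 77.5 and 85.2 against 25.6 and 28.2. CD200 and CD49f (integrin α6), a receptor of laminin in basement membranes, were the other two. CD71, the transferrin receptor of growing cells, was at 12.8 and 12.3 against 52.9 and 58.4, and the amino acid transporter chain CD98 at 59.2 and 67.8 against 151.5 and 179.

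Other antibodies were near the level of other cells. CD45 stood at 0.97 and 0.90 times the other barcodes, within the 0.918 to 1.34 and 0.815 to 1.15 of the isotype controls. The platelet integrin CD41 was at 0.97 and 0.92 times, the PD-1 ligand CD274 at 0.98 and 0.97 times, and VCAM1 (CD106) at 0.82 and 0.80 times. CD93 protein was at 1.02 and 0.92 times although its RNA, at 796 and 677 CPM, was far above the 3.05 and 2.55 CPM of the other barcodes. CD54, the protein of Icam1, was at 2.80 and 1.74 times, in the order of the RNA of the 2 reactions. Dense cells had a median of 6067 and 6354 antibody UMIs in all.

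The share of endothelial cells was highest after CPI in both reactions. Among barcodes without Ptprc with a single hashtag, 25 of 1565 (1.60%, 95% exact binomial interval 1.04% to 2.35%) and 35 of 1058 (3.31%, 2.31% to 4.57%) of CPI were members. With isotype, 6 of 6952 (0.0863%, 0.0317% to 0.188%) and 12 of 5782 (0.208%, 0.107% to 0.362%) were. With CPI + ABT-317, 2 of 1854 (0.108%, 0.0131% to 0.389%) and 8 of 1720 (0.465%, 0.201% to 0.914%) were, and with isotype + ABT-317, 5 of 2646 (0.189%, 0.0614% to 0.440%) and 3 of 1981 (0.151%, 0.0312% to 0.442%). Both CPI values lay above all 6 others.

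CPI against isotype differed by 2.31 percentage points (2.45% ± 1.21 against 0.147% ± 0.0857, SD, n = 2 reactions), and CPI + ABT-317 lay 2.17 points below CPI (0.287% ± 0.253). Each had p = 0.333 in the two-sided exact permutation test, the smallest that 2 against 2 values allow, so neither can pass 0.05. Without the CPI value of reaction 2 these differences were 1.45 and −1.31 points. Isotype + ABT-317 against isotype and CPI + ABT-317 against isotype + ABT-317 overlapped, with p = 1 in the same exact test, and the order of isotype + ABT-317 and isotype turned with the alternative. Isotype + ABT-317 lay above isotype without overlap as a share of all passing barcodes (1.65 times) and under the leading-hashtag rule (1.74 times), below it without overlap by CD31 antibody counts (0.51 times), and at 0.68 times with overlap in dense members. CPI + ABT-317 lay above isotype + ABT-317 without overlap under the leading-hashtag rule, at 2.15 times over all members and 2.91 times in dense members. That rule took dense CPI + ABT-317 members from 0 and 2 to 4 and 5, while isotype + ABT-317 stayed at 1 and 1. In dense cells with no called hashtag, the CPI + ABT-317 hashtag had the highest median, at 108.5 and 76.5 UMIs, and its part in this was not tested. The leading-hashtag rule, under which a barcode takes its highest hashtag where it exceeds the next by 1 natural log unit, with all members gave CPI 4.11% and 5.41%, isotype 0.0707% and 0.179%, CPI + ABT-317 0.541% and 0.392%, and isotype + ABT-317 0.185% and 0.248%.

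The contrast was as large in the cells with the firmest label. Dense cells made up 1.60% and 3.21% of CPI barcodes without Ptprc, 0.0432% and 0.0865% with isotype, 0 of 1854 (which allows up to 0.162%) and 0.116% with CPI + ABT-317, and 0.0378% and 0.0505% with isotype + ABT-317. Counting barcodes with at least 200 CD31 antibody UMIs in place of the RNA rule gave 1.92% and 2.46% for CPI, 0.0863% and 0.0865% for isotype, 0% and 0.116% for CPI + ABT-317, and 0.0378% and 0.0505% for isotype + ABT-317. The CPI barcodes were also the shallowest, with a median of 2589 and 3488 UMIs without Ptprc against 9301 and 15278 for isotype and 18637 and 25888 for CPI + ABT-317.

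**Figure D4:**
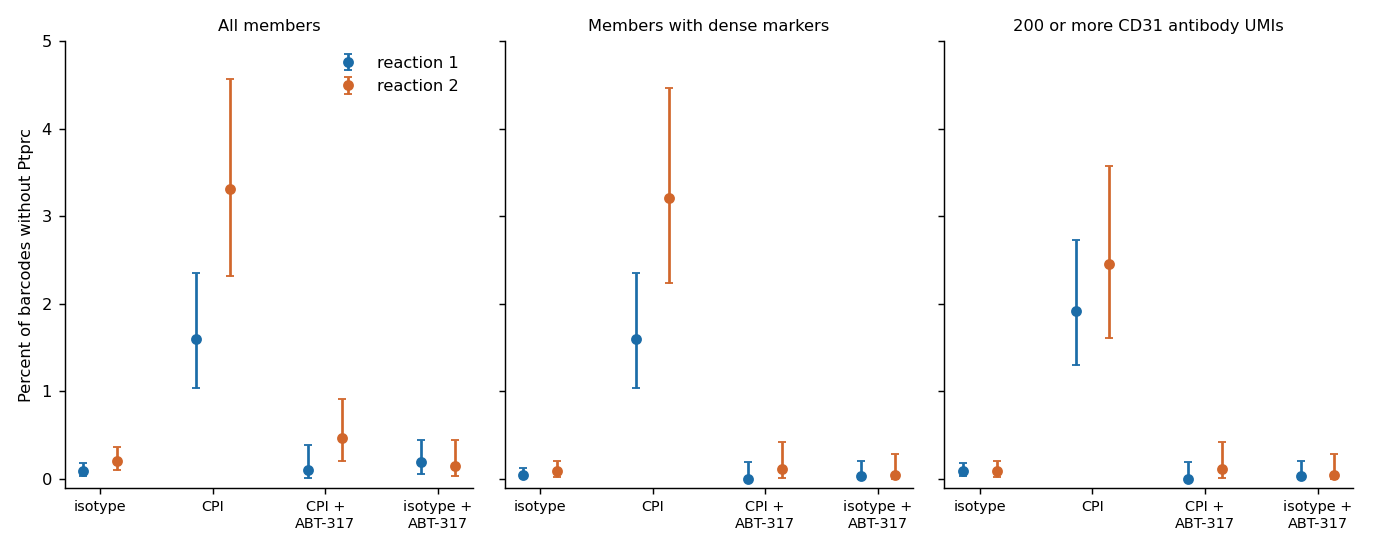
Members as a percent of barcodes without Ptprc, by treatment and reaction, for all members, for dense members, and for barcodes with 200 or more CD31 antibody UMIs, with 95% exact binomial intervals that cover counting error only. The CPI points sit between 1.60% and 3.31% in the first panel and all other points at or under 0.465%.

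The makeup of the barcodes without Ptprc changed along with the endothelial share. Leukocytes whose Ptprc RNA was not captured can be among these barcodes, and their part was not tested. Barcodes of the fibroblast gate were 64.9% and 67.6% of CPI barcodes without Ptprc, 27.5% and 25.01% for isotype, 17.9% and 15.9% for CPI + ABT-317, and 22.6% and 21.5% for isotype + ABT-317. Of members and barcodes of that gate together, members made up 2.40% and 4.67% for CPI, 0.313% and 0.823% for isotype, and 0.601% and 2.85% for CPI + ABT-317, so that CPI stayed above isotype while CPI and CPI + ABT-317 overlapped (p = 0.667, exact permutation test). A rise in endothelial cells and a fall in the other barcodes without Ptprc cannot be told apart in a share. Several hashtags were found on 44 and 26 members and none on 7 and 10, and those barcodes are in no treatment value.

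Within dense cells, no gene passed the test between CPI and isotype. The sums were 25 and 34 CPI cells (83567 and 119383 UMIs) against 3 and 5 isotype cells (9516 and 39649 UMIs), and 0 of 1190 genes had an adjusted p under 0.05 in edgeR's quasi-likelihood test (0%), with 71 at an unadjusted p under 0.05, and DESeq2 called 0 with 31 unadjusted. The label of these isotype cells was weak. Their median isotype hashtag was 102 and 52 UMIs, and their median CPI + ABT-317 hashtag was 51 and 47. The latter was common to other classes, with 52 and 40.5 in dense CPI cells. In isotype + ABT-317 barcodes of the fibroblast gate it was 55 and 49, so it does not mark a second treatment. None of the dense isotype cells kept the isotype label under the leading-hashtag rule, which left 0 and 0. On simulated counts with the sizes of these sums and 200 genes changed, edgeR recovered 65% of 4-fold changes and 1% of 2-fold changes. So 2-fold changes were mostly not detectable at this depth. The simulated spread was a fixed dispersion of 0.05, not estimated from these data, so the 65% does not carry over to the real sums. There Il6st (log2 fold change 3.63 ± 0.90) and Inhbb (−3.45 ± 0.78) did not pass (adjusted p = 0.48 for both, edgeR). With reaction as a replicate block, the count was 0, with 54 unadjusted. The count rested on which sums were in, since some genes passed when 1 sum was left out. Each such fit left 1 sum in that arm. Without 1 isotype sum, the isotype arm was 1 sum of 5 or 3 cells and the spread came from the CPI sums alone. The genes that passed there are no test of the isotype level and are not read.

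The dense sums are given for 6 of the 20 genes with the smallest p, chosen after their values were seen, none of which passed. Pecam1 and Flt1 are rule markers, which also chose the dense cells, so their levels are given without a test. Chga was at 239 and 318 CPM after CPI and had no UMI in both isotype sums. Pecam1 was at 1556 and 1173 CPM after CPI and at 420.3 and 630.5 CPM with isotype. Flt1, the decoy receptor of VEGF, was at 610.3 and 519 CPM against 1156 and 1665 CPM. Igfbp3, which binds insulin-like growth factors, was at 467 and 503 CPM against 1156 and 2648 CPM, and Inhbb, a subunit of activin, at 12.0 and 33.5 CPM against 315 and 303 CPM. For Inhbb, 12.0 and 315 CPM stand for 1 and 3 UMIs. Il6st, the shared receptor chain of IL-6 signaling that acts through JAK1, was at 287 and 234.5 CPM against 0 and 25.2 CPM, where 25.2 CPM stands for 1 UMI.

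No interferon or antigen presentation gene tested in dense cells passed between CPI and isotype. The 14 GTPases induced by IFN-γ summed to 838 and 561 CPM after CPI and to 630.5 and 782 CPM with isotype. The 15 type I interferon genes summed to 1879 and 1382 CPM against 3888 and 2018 CPM, with both isotype sums above both CPI sums, and MHC class I genes to 8628 and 8720 CPM against 5044 and 9029 CPM. Of these lists, 0, 2, and 6 genes were tested and 0 were called. Capillary genes summed to 8712 and 8008 CPM after CPI and to 2207 and 7238 CPM with isotype. Cell cycle genes summed to 1053 and 553 CPM against 1261 and 2699 CPM, and hypoxia genes to 1005 and 913 CPM against 2102 and 1538 CPM. The median log2 fold change was 0.53 over 6 capillary genes, −0.71 over 6 tip cell genes, and −0.09 over 11 basement membrane genes, against 0.04 over all 1190 genes.

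**Figure D5:**
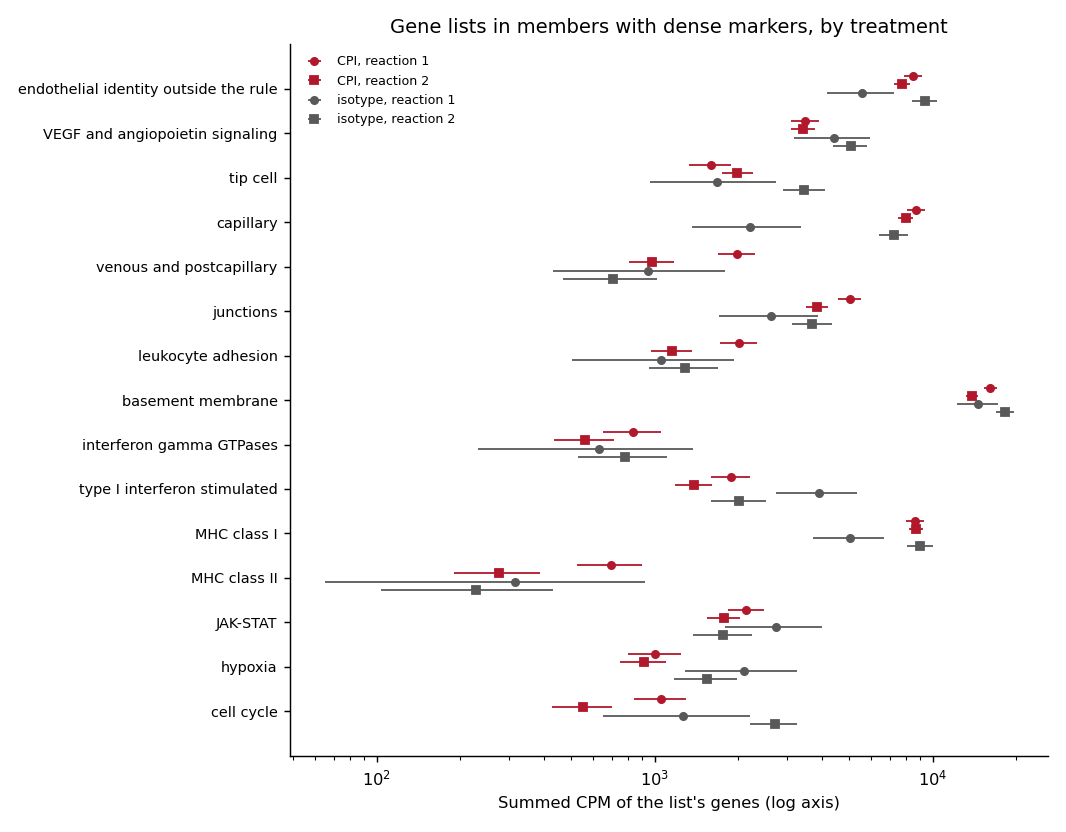
Summed CPM (log axis) of gene lists in dense members with the CPI hashtag (red) and the isotype hashtag (gray) in reaction 1 (circles) and reaction 2 (squares), with 95% exact Poisson intervals that cover counting error only. The intervals of the isotype sums are wide since they hold 3 and 5 cells, and no gene of these lists passed the test.

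Over all members, 573 of 3690 genes (15.5%) passed between CPI and isotype, 331 higher (8.97%) and 242 lower (6.56%). This fit held only 3 sums of at least 10 barcodes, CPI of both reactions with 25 and 35 members and isotype of reaction 2 with 12, and it left 1 residual degree of freedom. The 2 kinds of member were mixed unequally in these sums. Sparse members gave 84.3% of the UMIs of the isotype sum and 0% and 20.9% of those of the CPI sums. The 7 sparse isotype members had a median of 16 CD31 antibody UMIs, as did the isotype barcodes of the fibroblast gate in that reaction. The 1 sparse CPI member had 446. Most UMIs of the isotype sum thus came from barcodes whose median CD31 was at the level of other cells. Of the 331 genes higher after CPI, 328 (99.1%) were higher in dense than in sparse members in both reactions, as were 53.4% of all genes tested, and of the 242 lower genes 238 (98.3%) were higher in sparse members, as were 34.9% of all genes tested. In dense cells alone the count was 0, as given above.

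Among the largest rises over all members, Chga had 20 and 38 UMIs in the CPI sums and 0 of 252949 in the isotype sum. These were 20.2-fold and 21.2-fold above the level of 3 UMIs in that sum (log2 fold change 8.201 ± 1.28, edgeR). Chga was held by 8 of 51 and 9 of 53 dense cells, with up to 13 and 17 UMIs in 1 cell. The isotype sum held only 5 dense cells, and pooled UMIs do not cover the spread between cells, so the fold is no lower bound. Glycam1, Selp, and Mctp1 also had no UMI in the isotype sum of reaction 2, and the CPI sum of reaction 1 gave 25, 22, and 21 of their UMIs and that of reaction 2 gave 1, 3, and 4. The isotype members of reaction 1 were too few for this fit, and their dense cells held Mctp1 at 315 CPM and Selp at 105 CPM, against 251 and 33.5 CPM and 263 and 25.1 CPM in the dense cells of CPI. The smooth muscle gene Tagln had 5 and 25 UMIs. The other rises were Npr1, the receptor of atrial natriuretic peptide, the neuropeptide gene Nts, Ptchd4, the syndecan Sdc3, and the protocadherin Pcdh7, each with 7 to 17 UMIs in each CPI sum and none in the isotype sum of reaction 2. Sdc3 and Pcdh7 were at 315 and 105 CPM in the dense isotype cells of reaction 1, against 108 and 75.4 CPM and 95.7 and 83.8 CPM in the dense cells of CPI. In that isotype sum of 9516 UMIs, 3 UMIs stand for 315 CPM, so its values for these genes rest on 3 UMIs or fewer each. Among the largest falls, the hemoglobin gene Hbb-bs had 35 UMIs in the isotype sum, all in 1 dense barcode, and none after CPI. Mt2, Ero1a, and Dcn had 145, 153, and 123 UMIs with isotype and 2 to 8 in each CPI sum, and the others were Mmp9, 3830403N18Rik, Syce2, Rcn3, F3, which starts coagulation, and Ankrd1.

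The gene lists over all members are given beside that mixture, whose part in them was not tested, and with 1 isotype sum the fit assumes that this sum varies like the 2 CPI sums. Counts are to be read against the 8.97% of all genes that passed upward and the 6.56% that passed downward. Of 19 further endothelial genes tested, 14 passed upward, but 0 of 16 in dense cells, where both isotype sums were in. All 19 had a median log2 fold change of 2.10 against 0.07 over all genes, among them Fli1 (3.16 ± 0.71, adjusted p = 0.00032, edgeR) and Cldn5 (3.09 ± 0.69, adjusted p = 0.00031, edgeR). Of 8 capillary genes 5 passed upward, of 12 basement membrane genes 7, and of 7 leukocyte adhesion genes 4, while in dense cells 0 of 6, 0 of 11, and 0 of 3 did. Of 8 hypoxia genes 6 passed downward, among them Bnip3 (−3.23 ± 0.61, adjusted p = 1.4e-05, edgeR) and Ankrd37 (−2.97 ± 0.60, adjusted p = 5.1e-05, edgeR), and of 9 cell cycle genes 2 did, against 0 of 3 and 0 of 2 in dense cells. MHC class I genes had 0 calls among 10 tested and a median of 0.19. Of 12 JAK-STAT genes Il6st and Stat3 passed upward, against 0 of 3 in dense cells, while Jak1 (1.04 ± 0.58, adjusted p = 0.22) did not pass edgeR's test.

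The antibodies were fitted on the same 3 sums, with 1 isotype sum, so the test rests on the spread between the 2 CPI sums. Over all members 9 of 122 antibodies (7.38%) passed between CPI and isotype, 1 higher (0.820%) and 8 lower (6.56%). CD71 fell most, with 10.9 and 9.83 UMIs per member after CPI and 80.5 with isotype, but with 10.9 and 9.62 against 12.0 and 14.0 in dense cells, where it did not pass (−0.35 ± 0.14, adjusted p = 0.46, edgeR). In dense cells 1 antibody (0.820%) passed, CD29 (integrin β1), with 63.6 and 72.3 UMIs per cell after CPI against 117 and 137 with isotype (−0.92 ± 0.09, adjusted p = 0.040, edgeR). It lost the call with reaction as a replicate block, where 0 antibodies passed and 10 had an unadjusted p under 0.05. CD31 was at 345 and 275 per dense cell after CPI and at 380 and 559 with isotype (−0.60 ± 0.17, adjusted p = 0.30, edgeR).

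ABT-317 after CPI could be tested in genes only under the leading-hashtag rule. With the single-hashtag rule, CPI + ABT-317 had 2 and 8 members, and isotype + ABT-317 had 5 and 3, under the minimum of 10, so no comparison with them was fitted. Under the leading-hashtag rule 1037 of 4265 genes (24.3%) passed between CPI + ABT-317 and CPI over all members, 336 higher (7.88%) and 701 lower (16.4%). Of the members in these sums, 4 of 17 and 5 of 15 were dense with CPI + ABT-317 and 29 of 31 and 22 of 24 with CPI, so these sums differ in how many dense cells they hold and no list is read from this count. In the dense cells alone, 0 of 946 genes passed (0%, with 40 at an unadjusted p under 0.05). The CPI + ABT-317 label of these cells was weak. Dense cells with no called hashtag had a median CPI + ABT-317 hashtag of 108.5 and 76.5 UMIs, their highest. In the fibroblast gate of reaction 2, CPI + ABT-317 went from 273 barcodes under the single-hashtag rule to 1344. How many barcodes without a called hashtag entered these sums was not counted. The 2 dense cells with the single CPI + ABT-317 hashtag, both of reaction 2, held 14847 UMIs, with MHC class I genes at 12056 CPM (95% Poisson interval 10355 to 13958) and IFN-γ GTPases at 2694 CPM (1925 to 3669). These intervals cover counting error only, and 2 cells give no spread between samples.

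The CPI against isotype change was also set against that of the fibroblast gate, in 1 fit with an interaction term. The isotype arm of the members was again the single sum of reaction 2, since the 6 isotype members of reaction 1 were under the minimum of 10. Of 13851 genes, 139 (1.00%) changed differently, 55 upward in endothelial members relative to the gate (0.397%) and 84 downward (0.606%). Col3a1 led, with 120 and 106 CPM in CPI members and 352 CPM in isotype members, against 25544 and 27428 CPM and 3561 and 3755 CPM in the fibroblast gate (difference of log2 fold changes −4.98 ± 0.32, adjusted p = 1.9e-06, edgeR). Collagen was used to choose both classes, so this gene describes them. Sparse members gave 84.3% of the UMIs of the isotype members here too. The gate also differed between the treatments. In it Mmp2 was at 1725 and 1736 CPM after CPI and at 211 and 234 CPM with isotype, and Pgk1 at 205 and 265 against 1002 and 1203 CPM. A difference in the interaction can thus come from the gate or from the members, and the part of each was not tested. Of the capillary genes 3 of 8 differed upward, Aqp1 (5.24 ± 0.69, adjusted p = 0.0017, edgeR), Fabp4, and Rgcc, as did Cav1 and Notch1. In the gate Aqp1 was at 2.7 and 5.7 CPM after CPI and at 37.7 and 49.2 CPM with isotype. Rgcc and Cav1 were also lower in the gate after CPI, while Fabp4 was higher, at 143 and 153 against 89.5 and 113 CPM. In dense cells the log2 fold change of Aqp1 was 0.15 ± 0.62. These differences are thus not read as rises in endothelial cells. The rule markers chose the members and the gate, so no call is read from them. Gbp4 was the 1 of 14 IFN-γ GTPases that differed (3.54 ± 0.72, adjusted p = 0.028, edgeR), with 59.8 and 53.0 CPM in CPI members and 15.8 CPM in isotype members against 5.95 and 8.21 CPM and 30.3 and 34.1 CPM in the gate. With dense members in place of all members, 114 of 12754 genes (0.894%) differed, 36 upward (0.282%) and 78 downward (0.612%). Upward were 2 of 8 capillary genes, but 0 of 9 Notch genes and 0 of 13 IFN-γ GTPases, so Notch1 was not among the upward calls there. Downward were 4 of 19 further endothelial genes and 5 of 12 basement membrane genes, to be read against the 0.612% of all genes. These counts also hold the change of the gate. There Sparc was at 17646 and 21782 CPM after CPI against 1124 and 1307 CPM, and Ramp2 at 299 and 345 against 34.2 and 36.7 CPM. Tie1 was near zero in the gate, at 0 and 1.70 against 0.104 and 0.189 CPM. In dense cells the log2 fold changes of Sparc and Ramp2 were −0.004 ± 0.48 and −0.12 ± 0.37, and no gene passed. With reaction as a replicate block, 418 genes differed, or 289 with dense members. Without 1 sum the count was 67 (CPI members of reaction 1), 91 and 76 (CPI fibroblasts of reactions 1 and 2), and 118 to 130 for the others.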

How the data were processed

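Single-cell libraries of MC38 tumors were made in 2 10x reactions, each with gene, antibody, and hashtag reads. The authors deposited counts, the whole-number UMIs per gene or antibody and barcode, with no normalization. The submitters' processing notes name Cell Ranger 3.1.0 the matrix header names 8.0.1, and the study's methods name versions 5 and 7 with the genome build GRCm38. The 3 reactions of tumor-draining lymph node were not used.

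Barcodes with at least 200 genes and under 10% mitochondrial UMIs were kept, with no upper limit on genes, and members had 664 to 91066 UMIs. No doublet caller was run. A hashtag was called positive at a posterior over 0.5 in a 2-component Gaussian mixture on log hashtag UMIs, and a barcode with exactly 1 positive hashtag took its treatment. Raw counts were summed per treatment and reaction. Sums of at least 10 members (3 for dense cells) were fitted in edgeR 4.0.16 on R 4.3.3 (filterByExpr, TMM, quasi-likelihood test) with Benjamini-Hochberg adjustment over all genes and a threshold of 0.05, with DESeq2 1.42.0 as an alternative. Shares were compared by exact permutation tests (scipy 1.17.1). Alternatives changed the normalization, the filter on low counts, the hashtag rule, the number of markers, the upper limit on genes, and the denominator, and left out single sums. Dense markers, the CD31 antibody, and the fibroblast denominator were added as alternatives after the data had been seen. The scripts were tested on simulated data.

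The members, the 31 gene lists, and the rules were chosen with earlier results of these data known. Genes were named as the 25 with the highest ratio over other barcodes, the 10 largest rises and 10 largest falls past the threshold with both CPI sums on the same side of the isotype sum, and examples from the lists. The rule fixed for these asked for 1 direction in both reactions, which could not be checked in reaction 1, since its isotype members were too few for a sum. The labels number the reactions, and a number marks a shared 10x reaction, so the fit with reaction as a replicate block is given where it changed a count. Replicates are reactions loaded from hashtagged pools, so p-values measure the spread between reactions.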

Additional observations from a re-analysis of the deposited data

Results flagged for a closer look

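Between endothelial members and the fibroblast gate, 139 genes changed differently from isotype to CPI by the interaction term of edgeR, as described above, and the part that the unequal mixture of dense and sparse members took in this count was not tested.

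CD31 protein was also found on cells that the RNA rule left out. Of the barcodes without Ptprc that were not members, 70 carried at least 200 CD31 antibody UMIs, 42 in reaction 1 and 28 in reaction 2. At least 3 of the 20 further endothelial genes were detected in 24 and 16 of them, and 10 and 11 were in the fibroblast gate. Their median of all antibody UMIs was 10118 and 15032, against 6067 and 6354 in dense members.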

How the results depend on the processing

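The higher share of CPI over isotype and its lower value after ABT-317 kept their directions under all 12 alternatives each. The difference between CPI and isotype was 1.56 to 4.63 percentage points, and 1.45 to 3.16 when 1 value was left out, and that between CPI + ABT-317 and CPI was −1.56 to −4.29, and −1.31 to −3.02 when 1 value was left out. Both were smallest without the CPI value of reaction 2. The count of genes between CPI and isotype, 573 over all members, was 110 with DESeq2 and 0 in dense cells by edgeR and by DESeq2, and 2 to 43 when 1 dense sum was left out. Fewer UMIs and genes entered the dense fits. The count of antibodies, 9, was 1 in dense cells by edgeR and by DESeq2, and 0 to 10 when 1 dense sum was left out. The interaction count of 139 was 353 with no filter on low counts, 335 with DESeq2, and 67 to 130 when 1 sum was left out, and the cause was not tested.

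With reaction as a replicate block, 0 genes and 0 antibodies passed in dense cells, and the interaction count was 418, or 289 with dense members. Over all members, 3 sums left no residual degree of freedom for the block or for leaving 1 out, and these could not be fitted.

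The summed level of the 20 further endothelial genes was 29.1 times that of the other barcodes over all members (mean of both reactions). It was 39.9 times with fewer than 2500 genes, 73.5 times with at least 5 markers, 123 times with no collagen, C1q, or keratin UMI, and 155 times in dense cells. The share with at least 2 capillary genes, 76.6% of all members, was 41.3% after thinning, 90.5% in dense cells, and 67.5% in thinned dense cells. CPI against isotype genes with fewer than 2500 genes, at least 5 markers, no collagen UMI, or the leading-hashtag rule could not be fitted, nor could the other treatment comparisons of genes under the single-hashtag rule, since too few sums reached the minimum.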

Other observations

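Immediate early and heat shock genes summed to 3809 and 3271 CPM in dense endothelial cells against 2210 and 2591 CPM in the other barcodes without Ptprc, and 3 of the 8 were at least 2-fold higher in both reactions, near the 33.2% of all detected genes. Notch pathway genes summed to 946 and 884 CPM against 193 and 157 CPM, with 6 of the 7 detected genes at least 2-fold higher in both reactions, where 33.2% of all detected genes were. Detection in the dense cells was required, which favors genes that are high in them, so this count is no support. Of the ligands that inhibit T cells, Tnfsf10, which encodes TRAIL, was at 92.3 and 37.2 CPM against 1.0 and 0.9 CPM, while Cd274, which encodes the PD-1 ligand, was at 28.9 and 33.0 CPM against 21.5 and 18.9 CPM. Pdcd1lg2, Fasl, and Ido1 had no UMI in the dense cells.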
